A study of Mus musculus with 24 samples.

Results

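Skin of C3H/HeJ mice with alopecia areata (AA) that received PF-06651600 (JAK3i, also known as ritlecitinib), a selective inhibitor of JAK3, was compared with skin of vehicle-treated AA mice across all genes, by cell type and by pathway. The members were chosen by their column names in the table of raw gene counts, JAK3i 1 to 3 and Control 1 to 3 (vehicle), which makes 6 of 24 RNA-Seq libraries. Pretreatment and JAK2i libraries were left out of every comparison, and the JAK1-selective inhibitor INCB039110 (JAK1i), ruxolitinib (which blocks JAK1 and JAK2) and tofacitinib (a broader JAK inhibitor), with 3 libraries each, served only to show where JAK3i skin differed. AA was transferred to recipients of this inbred strain with alopecic skin or with T cells from affected mice, so JAK3i and vehicle mice alike carried established disease. Per the methods, the drug was given systemically by osmotic pump at 30 mg/kg for 12 weeks, and vehicle mice received the solvent. JAK1i was given at 50 mg/kg and ruxolitinib and tofacitinib at 30 mg/kg, so the dose of JAK1i differed from that of JAK3i. The sample labels instead name a 2% (w/w) ointment and call the vehicle mice untreated, and no ages are given. Cohorts of 5 mice are described, but no source ties a library to a mouse. The p-values below therefore measure the spread between libraries, which may be partly technical.

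JAK3 sits on the common γ chain, the receptor subunit shared by IL-2, IL-4, IL-7, IL-9, IL-15 and IL-21, where it works beside JAK1 and passes the signal on mainly through STAT5. IFN-γ signals through JAK1 and JAK2 and does not need JAK3. In AA, CD8+ T cells that carry the killer receptor NKG2D gather around the growing hair follicle, IFN-γ raises MHC molecules and T cell chemokines there, and the shaft breaks off. PF-06651600 binds JAK3 covalently and also blocks kinases of the TEC family.

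Total counts were 18677283 to 19233121 in the JAK3i libraries and 20676621 to 21858670 in the vehicle libraries, within the 17311913 to 21858670 of all 24. A second deposited table, of 7 ALADIN genes (the AA disease activity index), names 6 of its 24 columns otherwise than the count table. Its values for JAK3i replicates 1 and 2 of the count table stand under JAK1i and JAK2i names, while all 3 vehicle columns match. Over all genes tested, the 3 JAK3i libraries of the count table correlated with each other at 0.985 to 0.9873 (Pearson, log2 CPM) and with any library of JAK1i, ruxolitinib or tofacitinib at 0.9508 or less. The count-table names were used, and leading counts are also given without the libraries named otherwise, which leaves JAK3i replicate 3 alone, its spread assumed to be like that of the other groups. The tissue label was checked by genes of basal keratinocytes. Krt15 had 1942, 1577 and 2412 CPM in JAK3i skin, against 588, 669.6 and 711 CPM in vehicle skin, and Col17a1 had 1140.0, 1039.9 and 1332 CPM in JAK3i skin, against 744, 833 and 827 CPM in vehicle skin. All 6 libraries carried these skin markers, and the check was for presence only. Both rose in JAK3i skin, whereas all 8 keratins of interfollicular epidermis tested fell. Among those, Krt1 and Krt10 had log2 fold changes of -2.49 and -3.62 and were still present in all 6 libraries, as given below.

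JAK3i skin differed from vehicle skin in most of its transcriptome. Of 17770 genes with enough counts, 5634 (31.7%) were higher and 5876 (33.1%) lower after JAK3i at an adjusted p below 0.05 (quasi-likelihood test of edgeR), and 11228 of these 11510 had no overlap between the 3 JAK3i and the 3 vehicle libraries. These shares are the background for every count below. Levels are CPM, counts relative to the library total after scaling of library sizes, fold changes are log2 of JAK3i over vehicle with their standard error (SE), and a gene is said to rise or fall only when its adjusted p was below 0.05. Not called means so in this fit: of 161 genes examined singly that were not called, 73 passed under at least 1 alternative, 45 of them in a fit of the JAK3i and vehicle libraries alone. The median fold change of all genes was 0.02 on the log2 scale, but large changes were unevenly spread: 174 genes rose and 776 fell by a log2 fold change of at least 3, and 11 rose and 311 fell by at least 5. Without the libraries named otherwise, 4452 genes were higher and 4672 lower.

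The largest falls were all in hair fiber genes, led by Krtap19-3 (-11.7), Krtap2-4 (-10.46), Gm10229 (-9.76) and Krtap6-1 (-9.74) on the log2 scale, mostly keratin-associated proteins, which pack between keratin filaments. Krtap19-3 had 0, 0.0511 and 0 CPM in JAK3i skin, against 135, 57.6 and 41.7 CPM in vehicle skin, so that these fold changes rest on a few counts in JAK3i skin and are imprecise. The hair keratin Krt81 had 0.422, 0.204 and 0.406 CPM in JAK3i skin, against 393, 186 and 158 CPM in vehicle skin. The largest rises were of a different make-up. They were led by the leukocyte receptor Lilra5 (21.7, 23.3 and 5.63 CPM in JAK3i skin, against 0.184, 0.298 and 0.147 CPM in vehicle skin) and the proton pump subunit Atp6v0d2 (328, 349.5 and 163 CPM in JAK3i skin, against 4.19, 4.22 and 3.77 CPM in vehicle skin). Myoc, a secreted protein best known from the eye, had 269, 189.8 and 316 CPM in JAK3i skin, against 9.797, 6.56 and 9.64 CPM in vehicle skin. Behind these came the embryonic myosin Myh3 (4.78, but 2.98 without JAK3i replicate 3, its highest library), the liver- and fat-expressed enzymes Cyp2e1 (4.72) and Ces1f (4.42), the natriuretic peptide clearance receptor Npr3 (4.31), the angiotensin precursor Agt (4.3), and Bex1 (4.53) and Tceal7 (4.85). Krtap genes and Gm10228 and Gm10229 are near copies of one another, so reads may have been split between them and single values are uncertain.

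**Figure D1:**
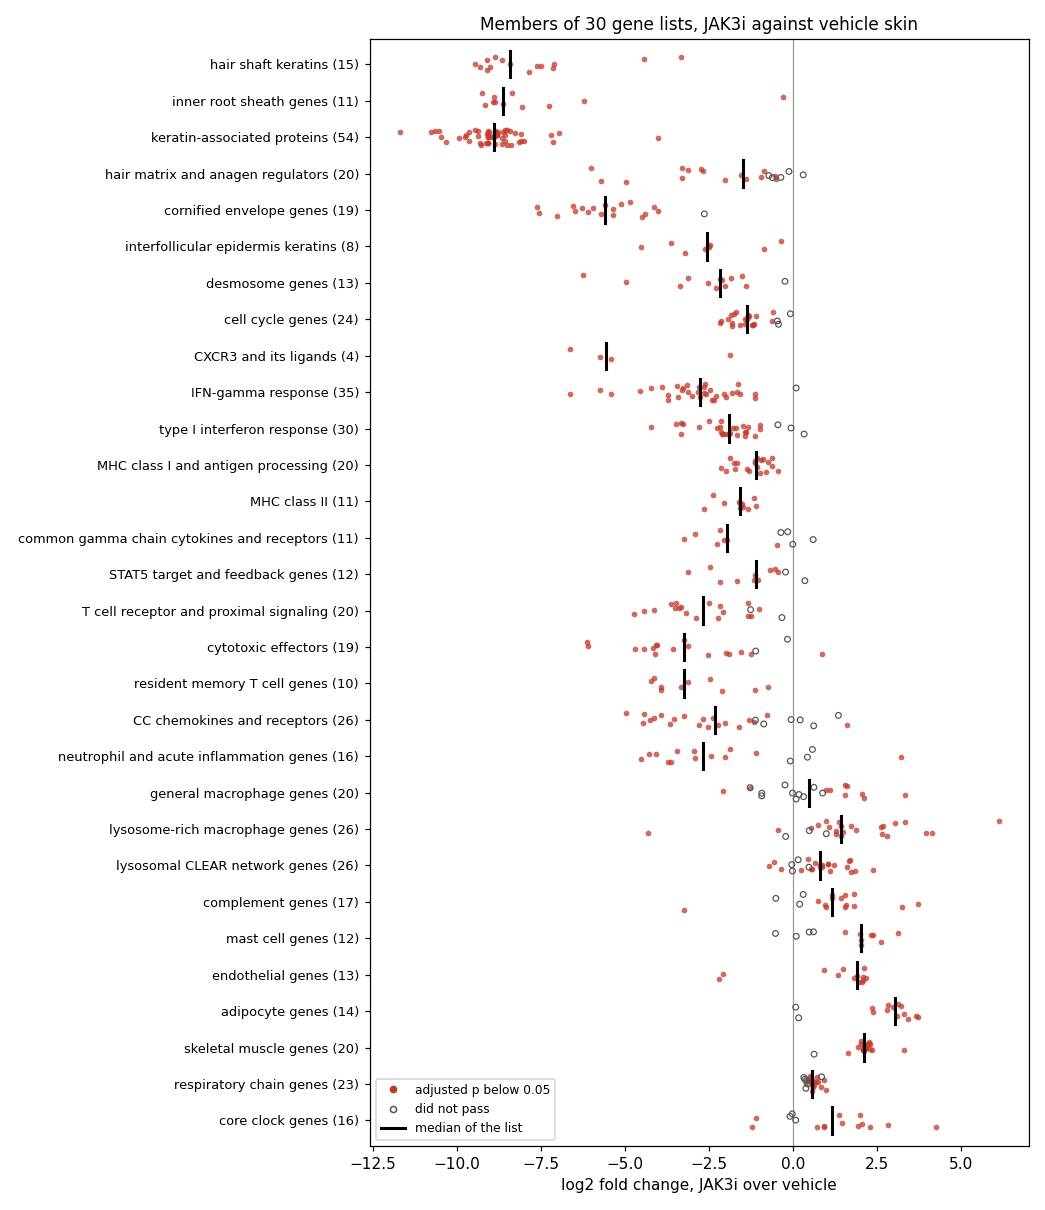
Log2 fold change of JAK3i over vehicle for each member tested of 30 gene lists, with the number of members in brackets; filled points passed the test (adjusted p below 0.05), open points did not, and vertical bars are list medians. Hair fiber, cornified envelope, interferon and T cell lists lie left of 0 (lower in JAK3i skin), and macrophage lysosome, mast cell, endothelial, adipocyte and muscle lists lie mostly right of it.

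The Janus kinases had small fold changes, and 2 of 4 fell. The target itself, Jak3 (Entrez 16453, GRCm38 chr8:71676383-71690577), had 56.9, 36.99 and 47.8 CPM in JAK3i skin, against 57.1, 54.8 and 55.1 CPM in vehicle skin, which did not pass the test (log2 fold change -0.24 ± 0.12 SE, adjusted p = 0.0839). Jak2, the kinase of the IFN-γ and growth hormone receptors, fell most (73.3, 68.9 and 64.7 CPM in JAK3i skin, against 126, 123 and 124 CPM in vehicle skin; log2 fold change -0.85 ± 0.11 SE, adjusted p = 1.93e-06), Jak1 fell by 0.36, and Tyk2 stood at -0.09 (adjusted p = 0.357). The drug acts on JAK3 protein, so the Jak3 transcript is no check of its effect.

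STAT genes, which carry the signal from JAKs to the nucleus, moved in both directions. Stat2, of type I interferon signaling, had 70.8, 56.9 and 68.1 CPM in JAK3i skin, against 294, 301 and 290.2 CPM in vehicle skin (log2 fold change -2.18 ± 0.08 SE, adjusted p = 1.65e-13). Stat3, of the IL-6 family, and Stat4, of IL-12, fell with log2 fold changes of -1.04 and -1.8. The 2 STAT5 genes went the other way. Stat5b had 109, 96.7 and 98.9 CPM in JAK3i skin, against 68.8, 70.5 and 72.7 CPM in vehicle skin (log2 fold change 0.52 ± 0.10 SE, adjusted p = 0.000174) and Stat5a rose by only 0.2. The small changes of Stat5a and of Stat6 (-0.2) lost their calls under some alternatives.

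Of the 11 common γ chain cytokines and receptors tested, 7 fell, 0 rose and 4 were not called, with a median log2 fold change of -1.96. The receptors fell most. Il21r had 2.32, 2.15 and 1.98 CPM in JAK3i skin, against 19.5, 18.9 and 22.4 CPM in vehicle skin (log2 fold change -3.23 ± 0.24 SE, adjusted p = 1.34e-09), and Il2rb, the β chain that reads both IL-2 and IL-15, had 4.22, 4.44 and 6.85 CPM in JAK3i skin, against 37.4, 38.02 and 41.7 CPM in vehicle skin (log2 fold change -2.91 ± 0.30 SE, adjusted p = 9.19e-08). The common γ chain Il2rg itself had 14.2, 11.5 and 13.3 CPM in JAK3i skin, against 50.1, 47.8 and 54.5 CPM in vehicle skin (log2 fold change -1.96 ± 0.13 SE, adjusted p = 2.26e-10). None of these 3 receptor genes overlapped between the groups. Il4ra, which is also used outside lymphocytes, fell by 2.27, Il2ra by 2.18 and Il9r by 2.05 on the log2 scale. The cytokines behaved differently from their receptors. Il7 fell by 0.48 (adjusted p = 0.0167), a call that some alternatives lost. Il15 had 8.33, 7.66 and 7.41 CPM in JAK3i skin, against 7.13, 8.299 and 8.12 CPM in vehicle skin (log2 fold change -0.01 ± 0.24 SE, adjusted p = 0.975; 95% interval -0.50 to 0.49), and Il15ra, which presents it, stood at -0.16 (adjusted p = 0.0712). Il7r was the most variable member: 41.97, 66.6 and 14.9 CPM in JAK3i skin, against 26.7, 26.3 and 28.6 CPM in vehicle skin. JAK3i replicates 1 and 2 lay above every vehicle library and replicate 3 below, and the fold change of 0.6 did not pass the test (adjusted p = 0.143).

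Genes that STAT5 is known to induce in lymphocytes fell together: 10 of 12 tested, with none higher and a median of -1.09 (9 without the libraries named otherwise). Cish, a feedback inhibitor of cytokine receptors, had 17.8, 39.6 and 16.1 CPM in JAK3i skin, against 80.1, 75.5 and 80.5 CPM in vehicle skin (log2 fold change -1.68 ± 0.24 SE, adjusted p = 5.16e-06). Socs1, a feedback inhibitor of JAK kinases, had 4.43, 6.897 and 5.94 CPM in JAK3i skin, against 37.4, 29.8 and 28.2 CPM in vehicle skin (log2 fold change -2.46 ± 0.20 SE, adjusted p = 3.33e-09). The kinase Pim2 fell by 1.14 on the log2 scale. Lta, lymphotoxin α of activated lymphocytes, had 0.844, 1.38 and 1.01 CPM in JAK3i skin, against 10.3, 7.55 and 10.6 CPM in vehicle skin (log2 fold change -3.13 ± 0.26 SE, adjusted p = 5.13e-09). The groups did not overlap for any of these 4, though Cish in JAK3i replicate 2 was above the other 2 JAK3i libraries. Bcl2, a survival gene, stood at 0.35 (adjusted p = 0.089) and Osm at -0.22 (adjusted p = 0.587), neither past the test. In bulk skin, fewer lymphocytes and less RNA per lymphocyte cannot be told apart for these genes or for the receptors above. Socs1 is also a member of the IFN-γ response list described below.

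The promoters of 9 of these 12 genes were found in RefSeq (build GRCm38.p6, 250 bases before to 50 after the start), and 3 of them, Cish, Socs3 and Lta, held the GAS motif TTCNNNGAA that STAT proteins bind, searched on both strands, against 9.55% of 27025 promoters of all genes. The Lta promoter (chr17:35205302-35205601, minus strand) held it at 2 places and is shown, written 5′ to 3′ along the gene, with the matches in capitals.
Lta: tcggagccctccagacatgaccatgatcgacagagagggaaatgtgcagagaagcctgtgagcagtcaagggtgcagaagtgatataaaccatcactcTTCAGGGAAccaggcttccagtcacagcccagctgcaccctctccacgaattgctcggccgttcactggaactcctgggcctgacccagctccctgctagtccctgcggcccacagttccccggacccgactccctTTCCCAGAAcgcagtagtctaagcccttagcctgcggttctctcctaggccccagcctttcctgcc
A match is a description of the letters and not evidence of binding. Among all genes tested with a promoter, GAS was held by 7.58% of 4180 that rose, 8.91% of 4401 that fell and 8.76% of 4348 that were not called.

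T cell transcripts were far lower after JAK3i. Of 20 T cell receptor and signaling genes tested, 18 fell and none rose (median -2.69; 17 fell without the libraries named otherwise). Cd8a (Entrez 12525, GRCm38 chr6:71373427-71379171) had 2.37, 5.11 and 2.69 CPM in JAK3i skin, against 97.5, 111 and 122 CPM in vehicle skin (log2 fold change -5.02 ± 0.32 SE, adjusted p = 1.86e-10), and its partner chain Cd8b1 fell by 5.12 on the log2 scale. Cd3g, a chain of the T cell receptor complex, had 4.27, 5.88 and 4.36 CPM in JAK3i skin, against 41.4, 53.8 and 51.98 CPM in vehicle skin, and the kinase Lck had 3.27, 3.58 and 3.96 CPM in JAK3i skin, against 33.5, 36.8 and 44.3 CPM in vehicle skin. Both kinases that start T cell receptor signaling fell, Lck by 3.40 and Zap70 by 2.51. No JAK3i library reached the lowest vehicle library for any of these genes. In bulk skin, fewer T cells and less RNA per T cell cannot be told apart, here or for any cell type below.

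Cytotoxic effectors fell in 16 of 19 tested, with a median of -3.24 (-3.12 with Gzme set at its bound). Gzmb, the granzyme that kills target cells through perforin pores, had 0.949, 0.971 and 1.42 CPM in JAK3i skin, against 84.5, 80.01 and 70.6 CPM in vehicle skin (log2 fold change -6.13 ± 0.31 SE, adjusted p = 1.05e-11). Ifng had 0.264, 0.358 and 0.457 CPM in JAK3i skin, against 8.97, 7.55 and 7.24 CPM in vehicle skin (log2 fold change -4.44 ± 0.32 SE, adjusted p = 7.36e-10). Gzme had no count in any JAK3i library and was at least 8.42-fold lower, against a floor of 3 counts over the 3 libraries. Nkg7 and Ctsw, of cytotoxic granules, fell by 3.24 and 3.12 on the log2 scale. Gzmk (-1.11) and the transcription factor Eomes (-0.17) were not called. Lamp1, kept on this list because it marks degranulation, rose by 0.84 (978, 1045 and 861 CPM in JAK3i skin, against 519, 538 and 549.7 CPM in vehicle skin); it is a protein of all lysosomes and returns with them below.

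Killer lectin receptors fell in part: of 10 tested, 5 fell and 1 rose. Klrk1, which encodes NKG2D, had 5.22, 2.61 and 5.18 CPM in JAK3i skin, against 23.8, 25.3 and 29.7 CPM in vehicle skin (log2 fold change -2.60 ± 0.39 SE, adjusted p = 7.63e-06). Klrc1 and Klrc2 fell by 5.28 and 4.95, and their partner Klrd1 by 2.67. The member that rose was Tyrobp, an adaptor also used by myeloid receptors (241, 238 and 141 CPM in JAK3i skin, against 50.6, 44.7 and 51.4 CPM in vehicle skin; log2 fold change 2.08 ± 0.32 SE, adjusted p = 1.05e-05). The second NKG2D adaptor, Hcst, stood at -0.49 (adjusted p = 0.121). Among the NKG2D ligands, H60c, expressed in skin, had 13.6, 10.3 and 12.3 CPM in JAK3i skin, against 38.7, 43.2 and 40.9 CPM in vehicle skin (log2 fold change -1.76 ± 0.11 SE, adjusted p = 1.50e-10). The other ligands were near the detection limit, with Ulbp1 at -1.2 and Raet1e at 1.37, calls that alternatives lost.

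Genes of T cell subsets and states moved the same way. All 10 resident memory genes fell (median -3.23; all 10 also without the libraries named otherwise). Itgae, the CD103 chain that holds T cells to epithelium, had 5.43, 6.23 and 6.39 CPM in JAK3i skin, against 96.4, 116 and 125 CPM in vehicle skin (log2 fold change -4.22 ± 0.30 SE, adjusted p = 7.36e-10), and the homing receptor Cxcr6 fell by 3.92. Of 13 checkpoint and costimulatory receptors, 11 fell, led by Cd226 (-4.31) and Tnfrsf9 (-3.97), and including Ctla4 (-2.21), Tigit (-2.55) and the PD-1 ligand Cd274 (-1.58). Tnfrsf4 was not called (-0.29). Of 9 regulatory T cell genes 7 fell, among them the GITR gene Tnfrsf18 (-0.95) and Ccr8 (-4.44), and Lrrc32 rose weakly (0.7). Cd28 was the exception among receptors for costimulation. It had 20.5, 13.1 and 19.4 CPM in JAK3i skin, against 3.59, 3.88 and 4.16 CPM in vehicle skin (log2 fold change 2.19 ± 0.31 SE, adjusted p = 4.51e-06), and every JAK3i library lay above every vehicle library.

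Of 8 genes of γδ T cells, 7 fell. The constant segments Tcrg-C2 and Tcrg-C4 fell by 4.02 and 3.67, and Tcrg-C1 had 0.844, 0.766 and 1.27 CPM in JAK3i skin, against 2.85, 3.83 and 3.82 CPM in vehicle skin. These segments are near copies, so reads may have been split between them. Only 4 fell without the libraries named otherwise. For natural killer cells, Gzma and Klrb1c fell by 4.16 and 1.5, whereas Ncr1, the receptor NKp46, had 2.79, 1.38 and 4.62 CPM in JAK3i skin, against 3.27, 3.63 and 5.09 CPM in vehicle skin and was not called (log2 fold change -0.44 ± 0.32 SE, adjusted p = 0.226). B cell genes had no common direction, with 3 of 12 higher and 2 lower. Cd22, an inhibitory receptor, rose (43.9, 32.3 and 20.6 CPM in JAK3i skin, against 6.72, 5.86 and 6.66 CPM in vehicle skin; log2 fold change 2.33 ± 0.22 SE, adjusted p = 3.02e-08) and so did Cd79b (1.73), but Ms4a1 (-0.76) and Cd79a (-0.25) were not called. Ighm had 304, 110.3 and 54.6 CPM in JAK3i skin, against 38.9, 30.9 and 56.5 CPM in vehicle skin, and JAK3i replicate 3 lay within the vehicle range.

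**Figure D2:**
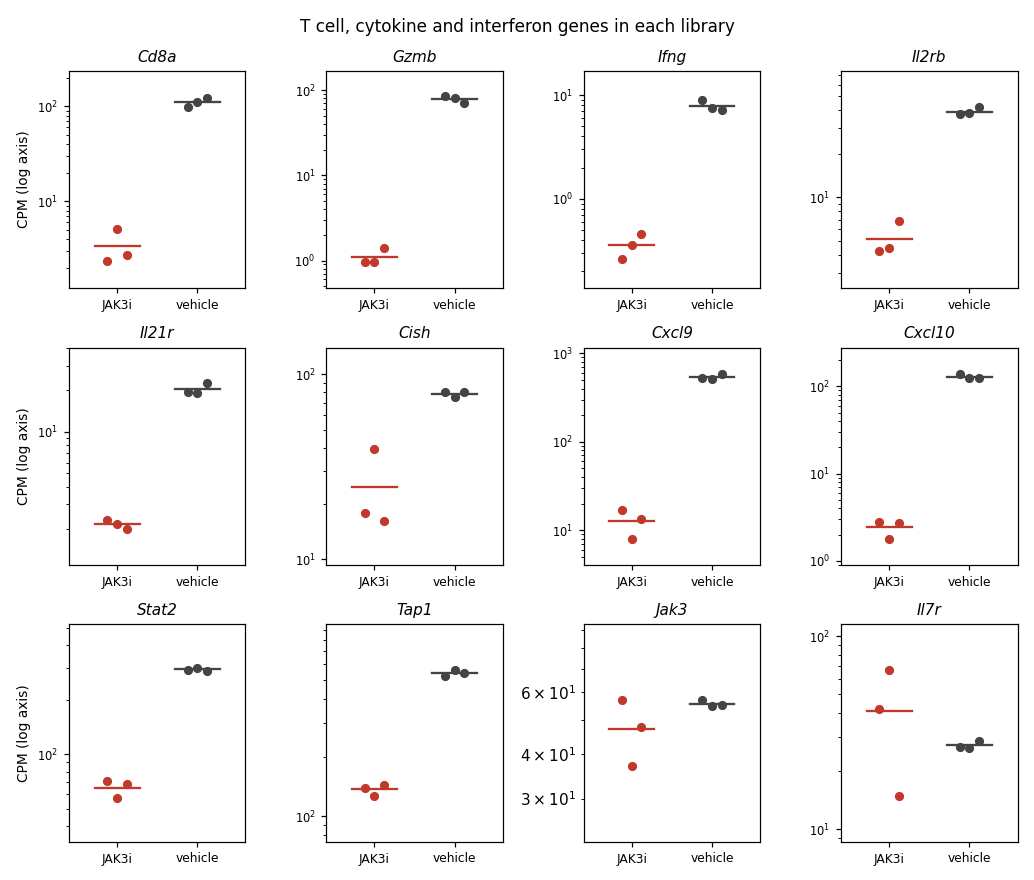
CPM of 12 T cell, cytokine and interferon genes in each library on log axes, JAK3i on the left and vehicle on the right of each panel; points are libraries and bars group means (n = 3 each). For Cd8a, Gzmb, Ifng, Cxcl9 and Cxcl10 all JAK3i points lie more than 10-fold below the vehicle points, Jak3 overlaps, and Il7r spreads over both sides of the vehicle values.

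Interferon response genes fell almost without exception. Of 35 IFN-γ response genes, 34 fell and none rose, with a median of -2.77 on the log2 scale, and all 34 fell without the libraries named otherwise too. The chemokines that call T cells through CXCR3 led them. Cxcl9 had 16.8, 8.02 and 13.5 CPM in JAK3i skin, against 529, 517 and 586 CPM in vehicle skin (log2 fold change -5.41 ± 0.25 SE, adjusted p = 3.63e-12). Cxcl10 had 2.79, 1.79 and 2.69 CPM in JAK3i skin, against 139, 124 and 123 CPM in vehicle skin (log2 fold change -5.73 ± 0.20 SE, adjusted p = 1.07e-13), and Cxcl11 had 0.949, 1.175 and 1.17 CPM in JAK3i skin, against 102, 104 and 119.8 CPM in vehicle skin (log2 fold change -6.62 ± 0.27 SE, adjusted p = 6.92e-13). Each of the 3 chemokines was over 30-fold lower, whereas their receptor Cxcr3 fell by 1.89. The GTPase Gbp2b, one of a family of near copies, had 38.1, 28.8 and 28.6 CPM in JAK3i skin, against 359, 331 and 355 CPM in vehicle skin. The single member not called was Irf8 (0.09, adjusted p = 0.653), a factor of myeloid cells as well as an IFN-γ target.

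Of 30 type I interferon response genes, 27 fell and none rose (median -1.90; 27 without the libraries named otherwise). Isg15, a ubiquitin-like modifier, had 7.65, 4.39 and 4.97 CPM in JAK3i skin, against 114, 108 and 95.1 CPM in vehicle skin (log2 fold change -4.22 ± 0.21 SE, adjusted p = 9.59e-12), and the RNA-binding protein gene Ifit1 fell by 3.34. The RNA sensors Ifih1 and Ddx58 fell by 1.91 and 1.43. Mx1 fell by 3.28. Ifit2 (-0.45), Oasl1 (-0.06) and Ifi27l2a (0.33) were not called. The receptors did not fall with the response: Ifngr1 had 121, 148 and 129.9 CPM in JAK3i skin, against 87.8, 91.3 and 93.9 CPM in vehicle skin (log2 fold change 0.55 ± 0.09 SE, adjusted p = 2.20e-05), Ifnar2 rose by 0.95 and Il10rb by 1.41, Ifngr2 (-0.09) and Ifnar1 (0.09) were not called, and Ifnlr1, the epithelial interferon λ receptor, fell by 0.95. All 8 genes listed here for ALADIN, the AA disease activity index, fell (median -5.21), among them Icos by 3.41; since all 8 are on lists described here, they are no separate evidence.

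The interferon-stimulated response element was searched as TTTCNNTTTC on both strands. It was held by 12 of the 23 IFN-γ response genes and 14 of the 22 type I response genes whose promoters were found, against 3.99% of all promoters. GAS was held by 10 of the 23 and 4 of the 22. Over all genes tested, the response element was in 2.99% of promoters of genes that rose, 5.07% of those that fell and 3.56% of those not called. The promoters of Cxcl10 (chr5:92348840-92349139, minus strand; match 213 bases before the start, on the other strand) and Stat2 (chr10:128270248-128270547, plus strand; match 222 bases before the start) are shown as examples of both lists, with the element in capitals.
Cxcl10: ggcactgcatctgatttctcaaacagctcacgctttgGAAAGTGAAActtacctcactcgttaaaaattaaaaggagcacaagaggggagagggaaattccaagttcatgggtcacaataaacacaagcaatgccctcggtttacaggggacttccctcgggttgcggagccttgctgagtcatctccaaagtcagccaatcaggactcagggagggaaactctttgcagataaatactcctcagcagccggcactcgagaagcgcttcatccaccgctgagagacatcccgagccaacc
Stat2: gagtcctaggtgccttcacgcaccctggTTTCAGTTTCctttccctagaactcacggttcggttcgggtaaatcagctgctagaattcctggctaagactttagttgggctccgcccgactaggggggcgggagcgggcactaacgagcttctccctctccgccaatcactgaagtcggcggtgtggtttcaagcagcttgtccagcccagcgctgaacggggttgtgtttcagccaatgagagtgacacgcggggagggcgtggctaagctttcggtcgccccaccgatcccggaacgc
Both genes fell in all 3 JAK3i libraries relative to the lowest vehicle library.

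Antigen presentation fell with them. All 20 MHC class I and antigen processing genes fell (median -1.10), and all 20 did so without the libraries named otherwise. Tap1 and Tap2, the peptide transporter of the class I pathway, had 139.8, 127 and 144 CPM in JAK3i skin, against 523, 558 and 543 CPM in vehicle skin (Tap1; log2 fold change -1.98 ± 0.10 SE, adjusted p = 1.97e-11) and 96.3, 92.2 and 92.9 CPM in JAK3i skin, against 313, 322 and 317 CPM in vehicle skin (Tap2; log2 fold change -1.76 ± 0.08 SE, adjusted p = 1.19e-12). Nlrc5, the activator of class I genes, had 99.4, 90.9 and 96.1 CPM in JAK3i skin, against 405, 424 and 426 CPM in vehicle skin (log2 fold change -2.13 ± 0.10 SE, adjusted p = 6.33e-12). All 11 class II genes fell as well (median -1.57), with their activator Ciita first (27.7, 15.8 and 16.4 CPM in JAK3i skin, against 126, 115 and 136 CPM in vehicle skin; log2 fold change -2.65 ± 0.39 SE, adjusted p = 7.32e-06) and the peptide-loading chain H2-DMa at -1.58, but only 7 fell without the libraries named otherwise. Levels of single H2 genes are uncertain, since the H2 haplotype of C3H/HeJ differs from that of the C57BL/6J reference.

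Chemokines of the CC family fell broadly, 19 of 26 with receptors included (median -2.31). Ccl5, made by T cells, had 4.32, 3.42 and 4.41 CPM in JAK3i skin, against 56.6, 68.9 and 60.9 CPM in vehicle skin, and Ccl2, which draws monocytes, had 4.904, 8.53 and 4.21 CPM in JAK3i skin, against 71.1, 47.7 and 47.7 CPM in vehicle skin. Ccl22, of dendritic cells, fell by 4.46. Ccl6, a macrophage chemokine of mice, rose (1.59), and Ccl3 (0.61) and Ccl27a of keratinocytes (-0.06) were not called. Of 16 neutrophil and acute inflammation genes, 12 fell. Lcn2, an iron-binding protein of stressed epithelium and neutrophils, had 2.21, 4.96 and 2.99 CPM in JAK3i skin, against 55.2, 63.7 and 51.4 CPM in vehicle skin (log2 fold change -4.06 ± 0.32 SE, adjusted p = 2.76e-09), Tnf had 1.95, 2.401 and 1.93 CPM in JAK3i skin, against 11.5, 10.3 and 12.1 CPM in vehicle skin, and the neutrophil receptor Cxcr2 fell by 4.27. Mmp9, a gelatinase of neutrophils and osteoclast-like cells, rose instead (104, 45.5 and 73.9 CPM in JAK3i skin, against 10.8, 6.21 and 7.15 CPM in vehicle skin; log2 fold change 3.20 ± 0.75 SE, adjusted p = 0.0009). Among type 2 genes, Il13 had 0.211, 0.766 and 0.304 CPM in JAK3i skin, against 5.15, 2.83 and 3.72 CPM in vehicle skin (log2 fold change -3.17 ± 0.41 SE, adjusted p = 1.46e-06) and the growth factor Areg fell by 5.48. Tslp rose (1.02), and Il33 (0.59) was not called. Of the gp130 family, Il31ra, the itch receptor chain, rose (12.6, 14.6 and 25.5 CPM in JAK3i skin, against 3.91, 3.58 and 4.796 CPM in vehicle skin), while Lif fell by 1.94, Cntfr by 3.61 and Osmr by 0.47.

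Against this general fall of immune genes, Cd4 rose. The gene (Entrez 12504, GRCm38 chr6:124864693-124888247) had 111, 90.2 and 104 CPM in JAK3i skin, against 7.82, 5.91 and 7.39 CPM in vehicle skin (log2 fold change 3.85 ± 0.16 SE, adjusted p = 6.92e-13), while the T cell receptor chain Cd3d, without which CD4+ T cells have no receptor, had 1.27, 0.869 and 0.812 CPM in JAK3i skin, against 10.99, 12.5 and 13.4 CPM in vehicle skin. In mice Cd4 is known mainly from helper T cells and from some dendritic cells and macrophages. Cd4 was also higher than under the other inhibitors, at 5.48, 4.58 and 4.43 CPM in JAK1i skin, 6.67, 8.49 and 10 CPM in ruxolitinib skin and 6.71, 8.601 and 7.38 CPM in tofacitinib skin. Tested directly, the log2 differences of JAK3i over these were 4.4, 3.6 and 3.75 (largest adjusted p 1.12e-11 by edgeR). All 3 JAK3i libraries, including replicate 3, lay more than 9-fold above every other library of the 5 groups.

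A group of macrophage genes tied to lysosomes, listed with earlier results of these data known, rose in the same libraries. Of 26 tested, 21 rose and 2 fell, with a median of 1.42 (18 rose without the libraries named otherwise). Trem2, a lipid-sensing receptor, had 256, 269 and 140.3 CPM in JAK3i skin, against 15.3, 13.7 and 13.9 CPM in vehicle skin (log2 fold change 3.96 ± 0.31 SE, adjusted p = 2.69e-09). Cd68, a glycoprotein of macrophage lysosomes, had 529.6, 605 and 363 CPM in JAK3i skin, against 54.2, 45.6 and 49.8 CPM in vehicle skin (log2 fold change 3.32 ± 0.29 SE, adjusted p = 8.14e-09). The largest change was that of Atp6v0d2, a proton pump subunit of macrophages and osteoclasts given above (Entrez 242341, GRCm38 chr4:19876838-19922566; log2 fold change 6.11 ± 0.30 SE, adjusted p = 9.59e-12). In all 3 genes JAK3i replicate 3 was the lowest of its group and still well above vehicle. Lpl, Cd36 and Fabp4 of lipid uptake rose by 2.62, 3.02 and 2.8, but adipocytes make these too, and adipocyte markers rose as described below. Spp1, osteopontin, fell (-4.32), Cd9 fell by 0.46, and Mmp12 (0.99) and Ctsl (0.48) were not called.

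Relative to vehicle, general macrophage genes did not rise as a body. Of 20, 8 rose, 2 fell and 10 were not called (median 0.46). The engulfment receptor Mertk had 63.5, 74.6 and 37.7 CPM in JAK3i skin, against 15.9, 11.8 and 12.7 CPM in vehicle skin, lysozyme Lyz2 had 1448, 1342 and 1336 CPM in JAK3i skin, against 314, 285 and 409 CPM in vehicle skin, and complement C1qc had 491, 451 and 338 CPM in JAK3i skin, against 154, 135 and 154 CPM in vehicle skin. These 3 had no overlap. The defining receptor Csf1r (0.62, adjusted p = 0.22), Mrc1 (0.88), Cd163 (0.17) and Aif1 (-0.02) were not called, although Csf1r (adjusted p = 0.00012) and Mrc1 (adjusted p = 0.000175) passed in a fit of the JAK3i and vehicle libraries alone, where 10 of the 20 rose. Itgam and Lyve1 fell by 1.29 and 2.10. With JAK3i replicate 3 as the only JAK3i library, 5 rose. Of 11 genes of alternative activation, 7 fell, led by Ccl24 (1.32, 1.58 and 2.38 CPM in JAK3i skin, against 79.1, 41.4 and 44.2 CPM in vehicle skin), Arg1 (-3.53) and Chil3 (-4.27), and the fat and macrophage regulator Pparg rose (3.07). Only 4 of these fell without the libraries named otherwise.

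Lysosomal genes beyond the macrophage list rose too. In the CLEAR network, genes under the lysosome regulators of the TFEB family, 19 of 26 rose and 3 fell (median 0.80; 16 rose without the libraries named otherwise). Hexa, a subunit of β-hexosaminidase, had 555, 465 and 321 CPM in JAK3i skin, against 80.7, 78.96 and 97.5 CPM in vehicle skin (log2 fold change 2.38 ± 0.19 SE, adjusted p = 2.77e-09). Psap, the precursor of sphingolipid activators, had 6219.9, 6436 and 3838 CPM in JAK3i skin, against 1503, 1425 and 1664 CPM in vehicle skin (log2 fold change 1.84 ± 0.16 SE, adjusted p = 1.00e-08), and Naglu and Sgsh of heparan sulfate breakdown rose by 1.6 and 1.23. The list was not uniform. Scarb2 and Tfe3 fell by 0.56 and 0.37, and Lamp2 (-0.02) and Npc1 (-0.04) were not called. The proton pump that acidifies lysosomes rose in 6 of 17 subunits and fell in 4, close to the background of all genes, and in 2 without the libraries named otherwise. Atp6v0a1 had 279.9, 217 and 172 CPM in JAK3i skin, against 90.02, 90 and 88.6 CPM in vehicle skin and the osteoclast-type Tcirg1 had 281, 261 and 166 CPM in JAK3i skin, against 143, 135 and 143 CPM in vehicle skin, whereas Atp6v1a (-0.12) and Atp6v0b (0.09) were not called.

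Regulators of the TFEB family bind the E-box CACGTG, which was searched in the promoters (the letters read the same on both strands). It was held by 9 of the 22 CLEAR genes found, Lamp1, Mcoln1, Gaa, Gla, Glb1, Naglu, Sgsh, Cln3 and Clcn7, against 8.09% of all promoters, and by 4 of 20 lysosome-rich macrophage genes. The CLEAR list is made of genes under these regulators, so a high share was built into it. That share is no evidence on the rise of its members. Over all genes tested the shares were 11.7% of those that rose, 10.3% of those that fell and 10.5% of those not called. The promoters of Lamp1 (chr8:13158911-13159210, plus strand), with 4 matches, the first 61 bases before the start, and of Naglu (chr11:101069844-101070143, plus strand), with a match 73 bases before the start, are shown with the E-box in capitals.
Lamp1: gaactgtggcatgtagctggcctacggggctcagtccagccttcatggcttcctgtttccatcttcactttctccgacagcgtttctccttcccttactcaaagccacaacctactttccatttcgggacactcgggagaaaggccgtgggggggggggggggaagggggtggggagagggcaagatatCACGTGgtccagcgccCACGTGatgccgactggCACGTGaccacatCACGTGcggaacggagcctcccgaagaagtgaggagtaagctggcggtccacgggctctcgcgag
Naglu: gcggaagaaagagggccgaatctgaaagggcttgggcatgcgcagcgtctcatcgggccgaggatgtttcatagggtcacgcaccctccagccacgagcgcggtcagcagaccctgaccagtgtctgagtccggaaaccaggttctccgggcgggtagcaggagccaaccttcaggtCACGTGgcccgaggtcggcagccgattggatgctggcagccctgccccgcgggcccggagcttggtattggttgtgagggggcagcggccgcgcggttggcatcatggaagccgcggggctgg
The clock proteins bind the same letters, and 5 of the 14 clock gene promoters found held them.

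Tested directly, lysosomal genes were mostly higher in JAK3i skin than under each other inhibitor. The lists were chosen with earlier results of these data known, so these counts describe their members and are no separate support for the rise. Against JAK1i, where 21% of all genes were higher and 21.9% lower in JAK3i skin, 24 of 26 lysosome-rich macrophage genes were higher. Against ruxolitinib, with 17.5% higher and 19% lower, 24 were higher, and against tofacitinib, with 18.7% higher and 20.7% lower, 24 were. For the CLEAR network these counts were 21, 21 and 23 of 26. General macrophage genes were higher in 15, 13 and 12 of 20 (0, 2 and 1 lower). Proton pump subunits were higher in 14, 12 and 11 of 17 (0, 0 and 1 lower). The difference from the other inhibitors was thus also seen in the general macrophage list. That list shares Cd68, and the proton pump list shares Atp6v0d2, with the lysosome-rich list. When the libraries named otherwise were left out, 18 and 16 of the lysosome-rich genes were higher than under ruxolitinib and tofacitinib. JAK1i was then left with replicate 1 alone, so that no such count is given against it. Summed over the lysosome-rich list, JAK3i libraries held 31402, 34697 and 22545 CPM, against 8149.9, 7866 and 9906 CPM under JAK1i, 10491, 11173 and 11179 CPM under ruxolitinib, 9779, 13425 and 11394 CPM under tofacitinib and 11515, 12973 and 12814 CPM under vehicle. Atp6v0d2 had 2.18, 2.84 and 2.07 CPM under JAK1i, 3.96, 3.68 and 4.08 CPM under ruxolitinib and 2.01, 4.33 and 1.54 CPM under tofacitinib, levels near those of vehicle skin. In all 3 direct comparisons the largest rises included Atp6v0d2, Trem2, the fungal glucan receptor Clec7a, the antibody receptor Fcgr4 and the survival gene Bcl2a1b, with log2 differences over ruxolitinib of 6.16, 5.29, 5.47, 4.86 and 5.42. Against vehicle, Clec7a and Fcgr4 changed less, at 1.17 and 1.22.

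**Figure D3:**
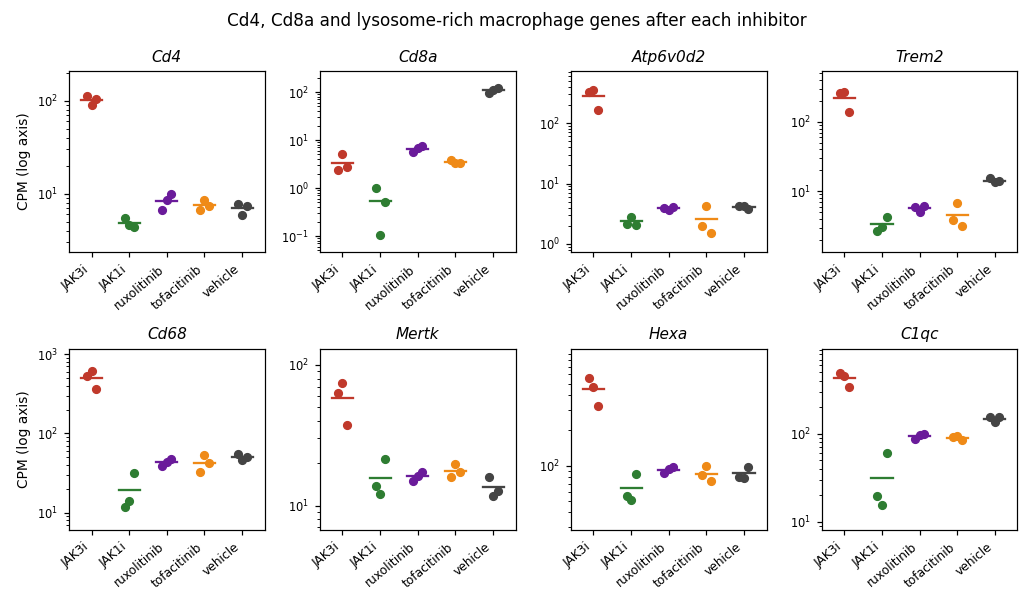
CPM of Cd4, Cd8a, lysosomal and macrophage genes in each library of JAK3i, JAK1i, ruxolitinib, tofacitinib and vehicle skin on log axes; points are libraries and bars group means (n = 3 each). Cd8a is low under every inhibitor, whereas Cd4, Atp6v0d2, Trem2, Cd68, Mertk, Hexa and C1qc are highest in the 3 JAK3i libraries.

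Complement genes rose with the macrophage genes, 13 of 17 (median 1.16; 11 without the libraries named otherwise). Cfd, adipsin, which adipocytes secrete, had 3110.5, 2672 and 2816 CPM in JAK3i skin, against 212, 192 and 257 CPM in vehicle skin (log2 fold change 3.70 ± 0.21 SE, adjusted p = 4.80e-11), properdin Cfp had 151, 113 and 136 CPM in JAK3i skin, against 40.2, 33.7 and 40.2 CPM in vehicle skin, and C4b had 441, 298 and 458 CPM in JAK3i skin, against 174, 163 and 206 CPM in vehicle skin. The late component C7 rose by 3.24, and C6, which acts beside it, fell by 3.23. Mast cell genes rose in 8 of 12 with none lower (median 2.00), the same 8 in number without the libraries named otherwise. The tryptase Tpsb2 had 119, 144 and 125 CPM in JAK3i skin, against 14.2, 14.9 and 15.96 CPM in vehicle skin (log2 fold change 3.11 ± 0.24 SE, adjusted p = 2.03e-09), and the chymases Mcpt4 and Cma1 rose by 2.39 and 2.31. The mast cell growth factor receptor Kit (0.09), Fcer1a (-0.52) and Ms4a2 (0.48) were not called. Of 16 Langerhans and dendritic cell genes, 10 fell. Epcam, of Langerhans cells and follicular epithelium, had 78.04, 103 and 103 CPM in JAK3i skin, against 633, 729.5 and 696 CPM in vehicle skin, the homing receptor Ccr7 fell by 2.54 and the cross-presenting cell marker Xcr1 by 1.88. Itgax (0.1) and Zbtb46 (0.1) were not called, and Itgax turned to -1.24 without the libraries named otherwise.

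The hair fiber program was nearly absent from JAK3i skin. No gene of the hair fiber lists escaped: 15 of 15 shaft keratins, 54 of 54 keratin-associated proteins and 11 of 11 genes of the inner root sheath fell, with medians of -8.42, -8.89 and -8.62 on the log2 scale (-8.81 for the keratin-associated proteins with genes without counts at their bounds). The shaft keratin Krt35 had 0.949, 0.4598 and 0.7103 CPM in JAK3i skin, against 189, 105 and 90.4 CPM in vehicle skin (log2 fold change -7.49 ± 0.75 SE, adjusted p = 5.02e-08), and the inner root sheath keratin Krt25 had 4.06, 2.55 and 3.602 CPM in JAK3i skin, against 2079, 1383 and 1289.6 CPM in vehicle skin (log2 fold change -8.86 ± 0.88 SE, adjusted p = 4.77e-08). Krt73 and Krt28 of the sheath fell by 8.62 and 7.25. Padi3, which citrullinates sheath and medulla proteins, and S100a3 of the cuticle fell by 7.28 and 7.42. Krtap5-3 had no count in any JAK3i library and was at least 213.1-fold lower, Krtap9-5 at least 199.2-fold and Krtap20-2 at least 66.1-fold, against the floor given above. Without the libraries named otherwise the counts that fell were 15, 52 and 10. Vehicle replicate 1 was the highest vehicle library for each of the 4 keratins named here.

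Regulators of the growing (anagen) follicle fell with the fiber. Of 20 matrix and anagen genes, 15 fell and none rose. Shh, the signal of the anagen matrix, had 0.158, 0.0511 and 0.203 CPM in JAK3i skin, against 13.3, 8.05 and 6.51 CPM in vehicle skin (log2 fold change -6.02 ± 0.77 SE, adjusted p = 1.31e-06). Hoxc13 and Foxn1, which switch on hair keratins, fell by 3.29 and 3.31, and Dlx3, needed for the shaft and sheath, by 5.72. Bmp4 (0.3) and Lhx2 (-0.36) were not called. Genes of the resting follicle went the other way in part. Fgf18, a signal of the resting (telogen) bulge, had 11.7, 9.298 and 23.3 CPM in JAK3i skin, against 1.56, 0.497 and 1.47 CPM in vehicle skin (log2 fold change 3.63 ± 0.37 SE, adjusted p = 5.80e-08), and Krt15, a bulge keratin given above, rose by 1.59. Tgfb2 rose by 1.46 and Fgf7 by 1.61. Fgf5, which ends anagen, fell (0.527, 0.255 and 0.913 CPM in JAK3i skin, against 4.6, 2.63 and 2.99 CPM in vehicle skin), and Fgf22 fell by 5.45. Among stem cell genes Sox9, Foxc1 and Lgr5 fell by 1.90, 1.89 and 1.11, so that 6 of 14 rose and 4 fell. Of 14 dermal papilla genes 5 rose and 5 fell: Corin and Inhba by 3.07 and 3.12, and Sox18 and Rspo3 rose by 1.54 and 1.75.

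Pigment genes followed the fiber in part. Of 14 melanocyte genes 7 fell and 1 rose. Tyrp1, an enzyme of eumelanin synthesis, had 2.69, 4.39 and 1.83 CPM in JAK3i skin, against 26.8, 12.3 and 10.2 CPM in vehicle skin (log2 fold change -2.47 ± 0.70 SE, adjusted p = 0.00441), and the transporter Slc45a2 had 0, 0.153 and 0.0507 CPM in JAK3i skin, against 5.47, 1.69 and 1.03 CPM in vehicle skin. Vehicle replicate 1 was the highest for both, and without it 4 genes of the list fell, against 3 without the libraries named otherwise. Tyr fell by 4.59, a call some alternatives lost. Mitf, which is also a lysosome and macrophage regulator, rose by 0.53, and Dct (-0.34), Mlana (0.66) and Sox10 (0.51) were not called.

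The differentiated epidermis was also lower in JAK3i skin. All 8 keratins of interfollicular epidermis tested fell (median -2.56), though 5 without the libraries named otherwise. Krt10, of the suprabasal layers, had 579, 526 and 729 CPM in JAK3i skin, against 6931, 8279 and 7357 CPM in vehicle skin (log2 fold change -3.62 ± 0.49 SE, adjusted p = 2.46e-06), and its partner Krt1 had 485, 582 and 716 CPM in JAK3i skin, against 3492, 3549 and 2967 CPM in vehicle skin (log2 fold change -2.49 ± 0.29 SE, adjusted p = 3.60e-07). Krt77 fell further, by 4.52. Of 19 cornified envelope genes, 18 fell (median -5.60; 18 without the libraries named otherwise), and only Lce3a (-2.64) was not called. Loricrin, Lor, the main protein of the envelope, had 41.9, 31.1 and 48.9 CPM in JAK3i skin, against 2925, 3472 and 3134 CPM in vehicle skin (log2 fold change -6.29 ± 0.99 SE, adjusted p = 1.57e-05). Filaggrin, Flg, had 22.3, 13.2 and 18.1 CPM in JAK3i skin, against 1894, 1602 and 1321 CPM in vehicle skin (log2 fold change -6.49 ± 0.69 SE, adjusted p = 1.10e-07), and the protease Casp14, which helps to degrade it, had 13.2, 13.7 and 14.8 CPM in JAK3i skin, against 318, 225 and 196 CPM in vehicle skin. The groups lay far apart for all 3 genes. Lce and Sprr genes are families of near copies, so their single values, such as -5.7 for Lce1d and -7.63 for Sprr1a, are uncertain.

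All 12 genes of activated keratinocytes fell (median -4.37; 9 without the libraries named otherwise). Krt6a and Krt16, keratins of wounded and inflamed epidermis and of the companion layer, had 73.6, 128 and 122 CPM in JAK3i skin, against 2081, 2102 and 1862 CPM in vehicle skin (Krt6a; log2 fold change -4.22 ± 0.32 SE, adjusted p = 1.79e-09) and 35.4, 77.5 and 56.6 CPM in JAK3i skin, against 1032, 798 and 661 CPM in vehicle skin (Krt16; log2 fold change -3.88 ± 0.61 SE, adjusted p = 1.43e-05). Krt17 had 171, 205 and 219.8 CPM in JAK3i skin, against 4161, 4971 and 4414 CPM in vehicle skin. Defb4, a β-defensin, had no count in JAK3i skin and was at least 21.29-fold lower. Of 13 desmosome genes, which join keratinocytes, 12 fell (median -2.18), Dsg3 with the smallest p-value (55.9, 65.3 and 78.3 CPM in JAK3i skin, against 249.7, 288 and 267 CPM in vehicle skin; log2 fold change -2.01 ± 0.13 SE, adjusted p = 3.58e-10) and including Pkp1 (-2.18), and Pkp2, the isoform of simple epithelium and heart, was not called (-0.24). Basement membrane genes were divided. Lama3 of epidermal laminin fell by 1.13, and Col17a1 rose by 0.55. Cell cycle genes fell in 21 of 24 (median -1.36; 21 without the libraries named otherwise). Mki67 had 48.4, 60.8 and 64.2 CPM in JAK3i skin, against 224, 206 and 176 CPM in vehicle skin (log2 fold change -1.81 ± 0.19 SE, adjusted p = 7.99e-08), and Top2a, needed to separate chromosomes, fell by 1.93, whereas the replication genes Pcna (-0.08), Mcm2 (-0.43) and Mcm3 (-0.47) were not called.

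This epidermal fall went beyond that under ruxolitinib and tofacitinib. Against JAK1i the size of the difference depended on JAK1i replicate 3, as given below. In direct tests 15 of 19 cornified envelope genes were lower in JAK3i than in JAK1i skin, and 15 and 15 were lower than under ruxolitinib and tofacitinib. The medians were -2.55, -4.27 and -4.41. For desmosomes the counts were 11, 11 and 10 of 13. Lor had 71.9, 76.7 and 2891 CPM under JAK1i, 1974, 1625 and 1162 CPM under ruxolitinib and 1061, 1661 and 1395 CPM under tofacitinib. JAK1i replicates 1 and 2 were close to the JAK3i libraries and JAK1i replicate 3 close to vehicle. The difference of Lor between JAK3i and JAK1i was -4.64 (adjusted p = 0.000458) and -0.98 without JAK1i replicate 3, and 12 of 19 cornified envelope and 9 of 13 desmosome genes were then lower in JAK3i skin. Without the libraries named otherwise, 12 and 14 cornified envelope genes were lower than under ruxolitinib and tofacitinib, and 10 and 8 desmosome genes. Hair fiber genes differed less between inhibitors: of 15 shaft keratins, 1 was lower than under ruxolitinib and 1 than under tofacitinib, and 10 were lower than under JAK1i, but 0 without JAK1i replicate 3. Krt25 had 5.87, 5.16 and 60.8 CPM under JAK1i, with replicate 3 the highest.

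**Figure D4:**
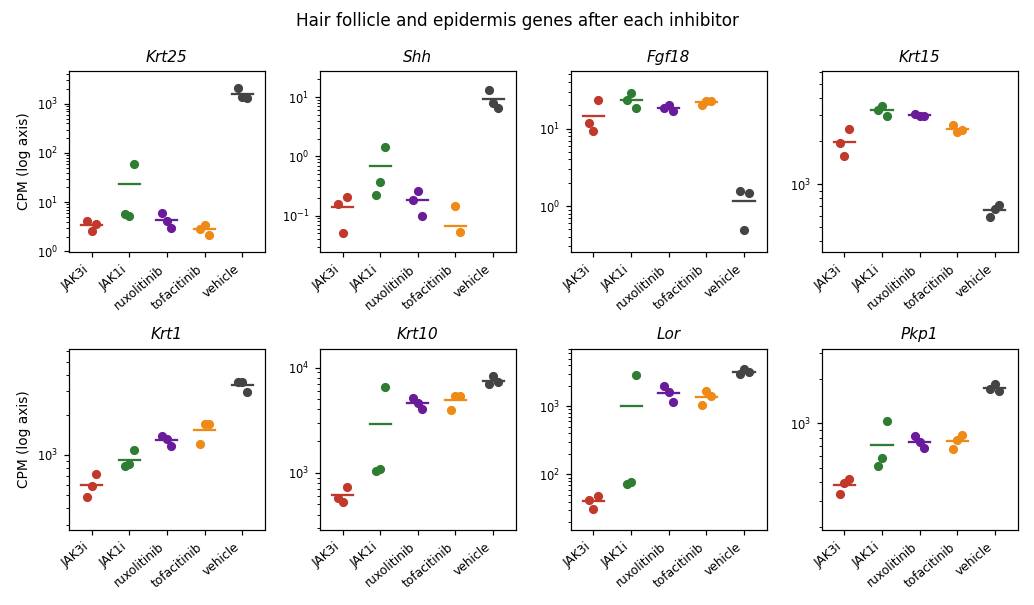
CPM of 4 follicle genes (Krt25, Shh, Fgf18, Krt15) and 4 epidermal genes (Krt1, Krt10, Lor, Pkp1) in each library of 5 groups on log axes; points are libraries, bars group means (n = 3 each), and a library at 0 is not drawn (Shh under tofacitinib). Krt25 and Shh are low and Fgf18 and Krt15 high under every inhibitor relative to vehicle, and Krt10 and Pkp1 are lowest in JAK3i skin. Krt1 did not pass the direct test of JAK3i against JAK1i.

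Tissues below the epidermis took a larger share of the counts after JAK3i. Skeletal muscle genes rose in 19 of 20 (median 2.11), and their summed level was 42163, 40149.9 and 52926 CPM in JAK3i libraries, against 9056, 11011 and 12042 CPM in vehicle libraries. The contractile protein genes Myh2 and Neb rose by 3.31 and 2.18, and only Myh4 (0.62) was not called. Adipocyte genes rose in 12 of 14 (median 3.02), with sums of 9256, 7549 and 8677 CPM in JAK3i libraries, against 1438, 1388 and 1524 CPM in vehicle libraries. The fat cell regulator Pparg had 80.9, 78.1 and 69.8 CPM in JAK3i skin, against 8.37, 8.796 and 9.98 CPM in vehicle skin (log2 fold change 3.07 ± 0.19 SE, adjusted p = 1.11e-10) and resistin, Retn, had 274, 302 and 265 CPM in JAK3i skin, against 28.3, 22.5 and 28.8 CPM in vehicle skin. Endothelial genes rose in 11 of 13 (median 1.89), with sums of 544, 478 and 548 CPM in JAK3i libraries, against 298, 309 and 319 CPM in vehicle libraries. The angiopoietin receptors Tie1 and Tek rose by 2.16 and 1.96, and the VEGF receptor Flt1 fell (30.5, 29.99 and 31.1 CPM in JAK3i skin, against 132, 145 and 147 CPM in vehicle skin). Hemoglobin and other red cell genes, at low levels, rose in 4 of 4, with sums of 102, 254 and 167 CPM in JAK3i libraries, against 63.2, 93.1 and 60 CPM in vehicle libraries. These sums do not overlap between the groups, and the counts without the libraries named otherwise were 19, 12, 10 and 4.

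How far the makeup of each piece of skin accounts for the falls and rises above was not tested. Muscle was higher still under JAK1i, at 150848, 130154 and 57202 CPM, and at 36139, 33555 and 34235 CPM under ruxolitinib and 56718, 22272 and 29415 CPM under tofacitinib. In those JAK1i libraries the summed lysosome-rich level was 8149.9, 7866 and 9906 CPM, below that of every vehicle library. CPM are relative to the library total, so a large muscle share can lower the CPM of other lists. Whether the muscle and lysosome-rich levels are linked was not tested. Dermal collagen genes did not move in a body: 2 of 18 rose, none fell, and Col1a1 (-0.43), Col1a2 (-0.19) and Col3a1 (-0.18) were not called. Decorin, Dcn, was the clear rise (1446, 1588 and 1505 CPM in JAK3i skin, against 523, 438 and 571 CPM in vehicle skin; log2 fold change 1.57 ± 0.46 SE, adjusted p = 0.00603). Nerve and Schwann cell genes rose in 5 of 9, led by the myelin protein gene Pmp22 (1.94). Among smooth muscle and pericyte genes Rgs5 rose (1.61) and Notch3 and Tagln fell by 0.85 and 0.90.

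**Figure D5:**
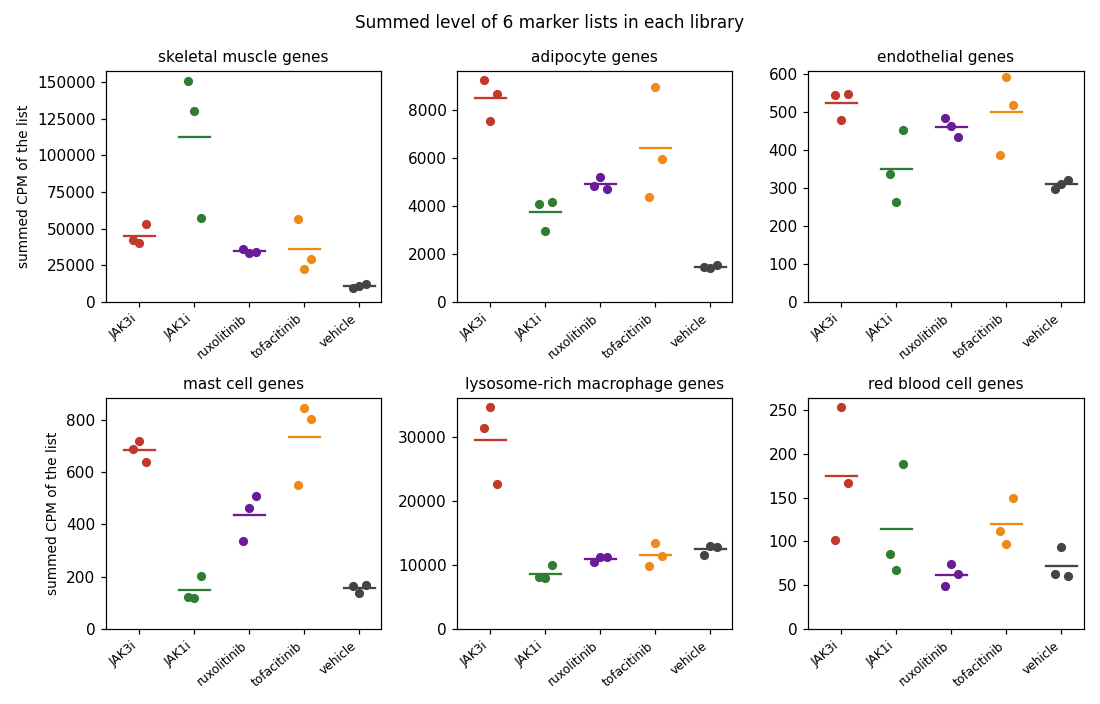
Summed CPM (linear axes from 0) of 6 marker lists in each library of JAK3i, JAK1i, ruxolitinib, tofacitinib and vehicle skin; points are libraries and bars group means (n = 3 each). All 6 sums are higher in every JAK3i library than in every vehicle library, the lysosome-rich sum is highest in JAK3i skin, and muscle is highest in JAK1i skin.

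Metabolic genes rose beside muscle and fat. Of 18 lipid synthesis genes 11 rose and 3 fell. Triglyceride and fatty acid enzymes rose, among them Agpat2 (104, 119.5 and 107 CPM in JAK3i skin, against 19.96, 18.7 and 21.05 CPM in vehicle skin), Dgat1 (1.38), Acacb (2.01), Scd1 (2.29) and Fasn (2.06), and the cholesterol enzyme Sqle fell by 1.77. Sebaceous gland genes were divided (5 of 14 higher, 3 lower), and the wax synthases Awat1 (-0.46) and Awat2 (0.1) were not called. Respiratory chain genes rose in 17 of 23 (median 0.56; 10 without the libraries named otherwise), such as Sdha (383, 342 and 382 CPM in JAK3i skin, against 190.5, 197 and 194 CPM in vehicle skin). The summed lipid synthesis level was 7593, 10478 and 10099 CPM in JAK3i replicates 1 to 3. The adipocyte sums of the same libraries, 9256, 7549 and 8677 CPM, ran in the opposite order. Whether the metabolic lists are tied to muscle or fat content was not tested. Clock genes rose in 11 of 16 and fell in 2, with the same numbers higher (11) without the libraries named otherwise. Dbp, an output factor of the clock, had 123, 74.6 and 102 CPM in JAK3i skin, against 5.43, 5.07 and 5.19 CPM in vehicle skin (log2 fold change 4.25 ± 0.45 SE, adjusted p = 1.25e-07), and the repressor Nr1d1 had 276, 192 and 333 CPM in JAK3i skin, against 35.9, 39.5 and 38.9 CPM in vehicle skin (log2 fold change 2.81 ± 0.27 SE, adjusted p = 2.70e-08). Cry1 and Arntl, which oscillate in opposite phase to Dbp and Nr1d1, fell by 1.11 and 1.22, and Clock was not called (-0.03).

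Over all genes, JAK3i skin differed directly from JAK1i skin in 7618 genes, from ruxolitinib skin in 6487 and from tofacitinib skin in 6990. Called without overlap against vehicle and all 3 inhibitors were 1062 genes that were higher (5.98%) and 1153 that were lower (6.49%) in JAK3i skin. These 4 comparisons share the JAK3i libraries. By list, 19 of 26 lysosome-rich macrophage, 15 of 26 CLEAR, 9 of 17 complement and 8 of 20 general macrophage genes were among those higher, and 13 of 19 cornified envelope and 9 of 13 desmosome genes, 5 of 24 cell cycle genes and 5 of 20 T cell receptor genes among those lower. The T cell genes were Cd3e, Cd3g, Trat1, Bcl11b and Tcf7. Cd3g had 9.61, 7.26 and 15.5 CPM under JAK1i, 23.1, 23.9 and 28.1 CPM under ruxolitinib and 17.1, 11.3 and 13.2 CPM under tofacitinib, above the JAK3i values given before. The γδ genes Trdc, Trdv4 and Tcrg-C1 were also lower than in all 4 groups. Over the whole T cell receptor list of 20, 8 genes were higher and 6 lower than under JAK1i. Against ruxolitinib 1 was higher and 16 lower, and against tofacitinib 1 was higher and 9 lower. Of 19 cytotoxic genes, 9 were higher and 2 lower than under JAK1i. Against ruxolitinib 1 was higher and 5 lower, and against tofacitinib 3 were higher and 4 lower. For the 35 IFN-γ response genes, 21 were lower than under tofacitinib, 9 lower than under ruxolitinib and 15 higher than under JAK1i. An effect of dose or compound was not tested.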

How the data were processed

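Skin RNA was sequenced as paired reads, and the deposited table holds raw read counts per Entrez gene, made by the authors on mm10 (GRCm38). The submitters' notes name Subread and DESeq2 1.18.1. The strand setting is not given in the sources used here. A second deposited table, of 7 ALADIN genes with scaled values and z score values made by the authors, served only to check column names. Among the counted genes, 26 symbols turned into dates were restored by Entrez ID. The 855 rows without a symbol (at most 0.608% of a library's counts) were kept under their Entrez IDs.

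Counts of all 24 libraries in 7 groups were fitted with edgeR 4.0.16 in R 4.3.3 (filterByExpr, minimum count 10, minimum total 15; TMM scaling; two-sided quasi-likelihood test), adjusted by Benjamini-Hochberg over 17770 genes, and the fit was tested on simulated data. Replicates differed by more than sampling noise (chi-square per degree of freedom 6.83 to 31.5). Floors cover counting error only.

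Gene lists were chosen with earlier results of these data known. Named are the JAK, STAT and common γ chain members, up to 5 members of each other list with the smallest p-values, members against their list's direction or not called, ALADIN genes, the 10 largest rises and falls and the 5 largest per direct comparison (called, mean log2 CPM of at least 1, no overlap). Some genes that this rule names are not reported here. Genes listed by motif, or as apart from all groups, were chosen after their values were seen. Promoters came from RefSeq (GRCm38.p6). Alternatives were DESeq2 1.42.0, RLE scaling, TMM without hair and muscle genes, no or a stricter filter, fits of fewer libraries, a replicate block, and leaving out single libraries or those named otherwise.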

Additional observations from a re-analysis of the deposited data

Results flagged for a closer look

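Among the 486 genes examined singly, 19 differed between JAK3i skin and each of the 3 other responding groups (JAK1i, ruxolitinib and tofacitinib) in the same direction, by a log2 difference of at least 3 in direct tests of edgeR and without overlap between libraries. The value given is the smallest of the 3 differences, JAK3i over the other inhibitor. The genes examined singly include those with the largest rises and falls in these same direct comparisons. Such genes were picked by the difference that the rule then asks for. The other genes came mainly from lists chosen with earlier results of these data known. The number of genes flagged therefore describes this selection and is no separate evidence of a difference between inhibitors. No explanation was tested.

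In 12 genes JAK3i skin was higher. For the leukocyte genes these smallest differences were 3.602 for Cd4 and 3.091 for Cd22 over ruxolitinib, and 3.108 for Cd28 and 3.749 for Ccl3 over tofacitinib. For macrophage and lysosomal genes, all over ruxolitinib, they were 6.163 for Atp6v0d2, 5.289 for Trem2, 3.531 for Cd68, 3.004 for Mmp12, 5.473 for Clec7a, 4.86 for Fcgr4, 5.328 for Lilra5 and 5.424 for Bcl2a1b. Without the libraries named otherwise, Cd4 stood 3.62 and Atp6v0d2 5.37 over ruxolitinib, and Mmp12 no longer passed the test (0.94, adjusted p = 0.348).

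In 7 genes, which include the epidermal loricrin Lor and repetin Rptn, JAK3i skin was lower, and the smallest differences were all over JAK1i: -5.054 for Lypd5, -4.822 for Rptn, -4.64 for Lor, -4.45 for Krt23, -4.441 for Serpina12, -4.394 for Sdr9c7 and -3.389 for Krt77. JAK1i replicate 3 was the highest JAK1i library for all 7. Without it the differences were -1.50 for Lypd5, -0.99 for Rptn (adjusted p = 0.633), -0.98 for Lor, -0.89 for Krt23, -1.63 for Serpina12, -1.20 for Sdr9c7 and -0.93 for Krt77, and Rptn alone of the 7 was no longer past the threshold. Without the libraries named otherwise, which leaves 1 JAK3i and 1 JAK1i library, Krt77 (adjusted p = 0.136), Rptn (0.91), Lor (0.138) and Sdr9c7 (0.21) lost the call against JAK1i, and Rptn also lost it against ruxolitinib (0.0762) and tofacitinib (0.0526).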

How the results depend on the processing

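The comparison of JAK3i with vehicle changed little with the processing: 11352 to 11535 genes were called under RLE scaling, DESeq2, no filter on low counts or a fit of only the 2 groups, 11146 with a stricter filter, and 10607 to 10964 when 1 library was left out. With the replicate block, in a fit of the 18 posttreatment libraries, 11043 were called (11159 without the block). Correlations of deviations between same-numbered libraries were -0.00354, 0.0317 and -0.0613. They showed no strong shared deviation, but they cannot tell whether the numbers pair the libraries, which the labels do not say. The block changed no other call by over 1.5 times than the NKG2D ligands (below). Of 325 called genes among the 486 named or listed as not called, 296 kept direction and call under every alternative. Of the 161 not called, 73 passed under at least 1 alternative, 45 of them in the fit of only the 2 groups. Atp6v1b2 and Itgax, not called with all libraries, were called with the opposite sign without the libraries named otherwise (-0.343 and -1.241). A change of sign called in neither fit was seen in 62 genes, such as Il7r (-0.844), Mmp12 (-1.044) and Igkc (-1.832) without the libraries named otherwise.

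Against JAK1i, fitting only the 2 groups compared left 2405 genes (1554 higher, 851 lower). Without the libraries named otherwise, an alternative chosen after seeing the data, 3590 genes (1514 higher, 2076 lower) differed from ruxolitinib and 4015 (1666 higher, 2349 lower) from tofacitinib. Members lower were then 1 for NKG2D ligands, 4 for γδ T cells, 7 for MHC class II, 4 for alternative macrophage activation, 3 for dermal papilla, 3 for melanocytes and 5 for epidermal keratins, and members higher were 5 for general macrophage, 2 for proton pump, 10 for respiratory chain and 1 for collagen genes. NKG2D ligands were also 1 lower in the 18-library fit with and without the replicate block. DESeq2 called 11 cornified envelope genes lower, 8 others having no adjusted p, and 4 collagen genes higher, and the fit of 2 groups called 5 collagen and 6 basement membrane genes higher. Leaving out 1 library gave 1 to 2 NKG2D ligands, 4 to 7 melanocyte, 6 to 10 proton pump and 1 to 4 basement membrane genes. Leaving out 1 JAK3i library moved the log2 fold change by the equivalent of over 1.5 times for Gzma (-4.97) and C6 (-3.93) without replicate 3, for Lyve1 (-3.05), Il13 (-3.88) and Krtap19-3 (-13.56) without replicate 2, and for Ighm (0.97), Areg (-6.07) and Krtap2-4 (-13.13) without replicate 1, and that of Slc45a2 and Tyr was -4.19 and -3.79 without vehicle replicate 1 and -6.41 and -5.42 without JAK3i replicate 2. Apart from these constructions, the cause was not tested. With 3 libraries a group the median SE of a log2 fold change was 0.1648, which limits the precision of small changes.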
